A study of Mus musculus with 8 samples.

Results

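The complement system was followed as a set of 33 genes, listed by symbol and looked up in the gene column of each processed table. All 33 symbols were found among the 21968 genes of the tables, and 31 of them passed the filter on low counts; Cfd and Fcnb did not. The study sequenced bulk RNA of 4 cell groups from injured mouse liver: the b-gal+ and the b-gal- gate of F4/80high cells, EpCAM-positive cells (cholangiocytes in the series text) and hepatocytes. Every mouse was Lgr5-LacZ transgenic on a mixed C57BL/6 and CBA background, and every mouse had received 1 µl/g of the liver toxin CCl4 in rapeseed oil by a single intraperitoneal injection 6 days earlier, so no comparison with uninjured liver is made here. The sample labels put the age at 10 to 12 weeks, and the series text at 7 to 12 weeks. Each group has n = 2 libraries and each library pools 2 mice, so the p-values measure the spread between pools, and single mice cannot be told apart. The b-gal+ and b-gal- gates rest on a fluorogenic substrate of β-galactosidase and on F4/80, an antigen of macrophages, whereas the hepatocytes were taken by low-speed centrifugation.

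Complement is a cascade of plasma proteins that marks microbes and dying cells, recruits leukocytes and can pierce membranes. Recognition molecules (C1q, the mannose-binding lectins and the ficolins) activate bound serine proteases, which cleave C4 and C2 into an enzyme that splits C3. Properdin and factors B and D run an amplifying loop around C3, C5 to C9 assemble the membrane attack complex, and soluble and membrane-bound regulators restrain each step. The liver is the main source of the plasma components, and macrophages are a well-known source of C1q and properdin.

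The libraries hold 16948568 to 24549242 reads of named genes. Levels are given as TMM-scaled CPM (counts per 1000000 reads), always in the order replicate 1 and replicate 2, and 3 reads correspond to 0.122 to 0.177 CPM before scaling. As a check of the labels, Adgre1, which encodes F4/80, had 1731 and 1361 CPM in b-gal+ cells, 311 and 134 in the b-gal- gate, 138 and 14.2 in the EpCAM-positive group and 20.1 and 13.9 in hepatocytes. Epcam had 88.5 and 214 CPM in EpCAM-positive cells and at most 1.47 elsewhere, and Alb (albumin) had 126463 and 202801 CPM in hepatocytes. LacZ of the reporter had 0 to 14 reads per library, with 0 and 4 in b-gal+ cells, so the transgene itself was near the detection floor in the b-gal+ gate. All 8 Kupffer cell, 8 sinusoidal endothelial and 8 hepatocyte markers had reads in every library. The summed level of the 8 sinusoidal endothelial markers was 16375 and 19078 CPM in b-gal- cells, above the 1798 and 1454 CPM of the Kupffer cell (liver macrophage) markers there. In b-gal+ cells the order was the opposite, with 26505 and 22899 CPM of Kupffer cell and 3488 and 2606 of endothelial markers. The EpCAM-positive libraries also held endothelial (6862 and 5762 CPM) and B and plasma cell markers (4225 and 1637), beside 2064 and 6615 CPM of 8 cholangiocyte markers, all of which had reads there. Elsewhere that list summed to at most 1267 CPM, with Epcam, Cftr and Krt23 at 0 in b-gal+ replicate 1 and Cftr at 0 in b-gal+ replicate 2 and both hepatocyte libraries. Spp1 made up most of the sum in EpCAM-positive cells (1837 and 5686 CPM) and in b-gal- replicate 1 (1263). Krt19, a keratin of bile ducts, had 28.4 and 112 CPM in EpCAM-positive cells and 1.15 in b-gal- replicate 1. The 4 replicate 1 libraries held 2863 to 4914 reads of 4 Y-linked genes and the 4 replicate 2 libraries held 0, which splits the replicates of every group the same way. The spread between pools that the p-values measure therefore includes this split. In bulk RNA, fewer cells of a type and less RNA per cell cannot be told apart.

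The complement genes divided between hepatocytes and b-gal+ cells. In 16 of 33 members both hepatocyte libraries were above all 6 others, and in 8 members both b-gal+ libraries were (C1qa, C1qb, C1qc, Fcna, Cfp, C6, C3ar1 and C5ar1). Both b-gal- libraries were highest for Masp1, Cd55 and C5ar2, and the remaining 6 members (Fcnb, Cfd, C7, Clu, Cd59a and Cd46) had no such group. Over all 14404 genes tested, 29% were highest in hepatocytes, 14.2% in b-gal+, 12.7% in b-gal- and 6.53% in EpCAM-positive cells by the same rule of at least 1 CPM and no overlap. The 33 members together took 4.07% and 3.29% of the hepatocyte reads, 1.79% and 1.82% of those of b-gal+ cells, 0.405% and 0.307% of those of the b-gal- gate, and 0.509% and 1.50% of those of the EpCAM-positive group. C3 alone made up 59.3% and 63.6% of the hepatocyte share. In b-gal+ cells C1qb was the most abundant member, with 20.2% and 22.5% of the members' reads.

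**Figure D1:**
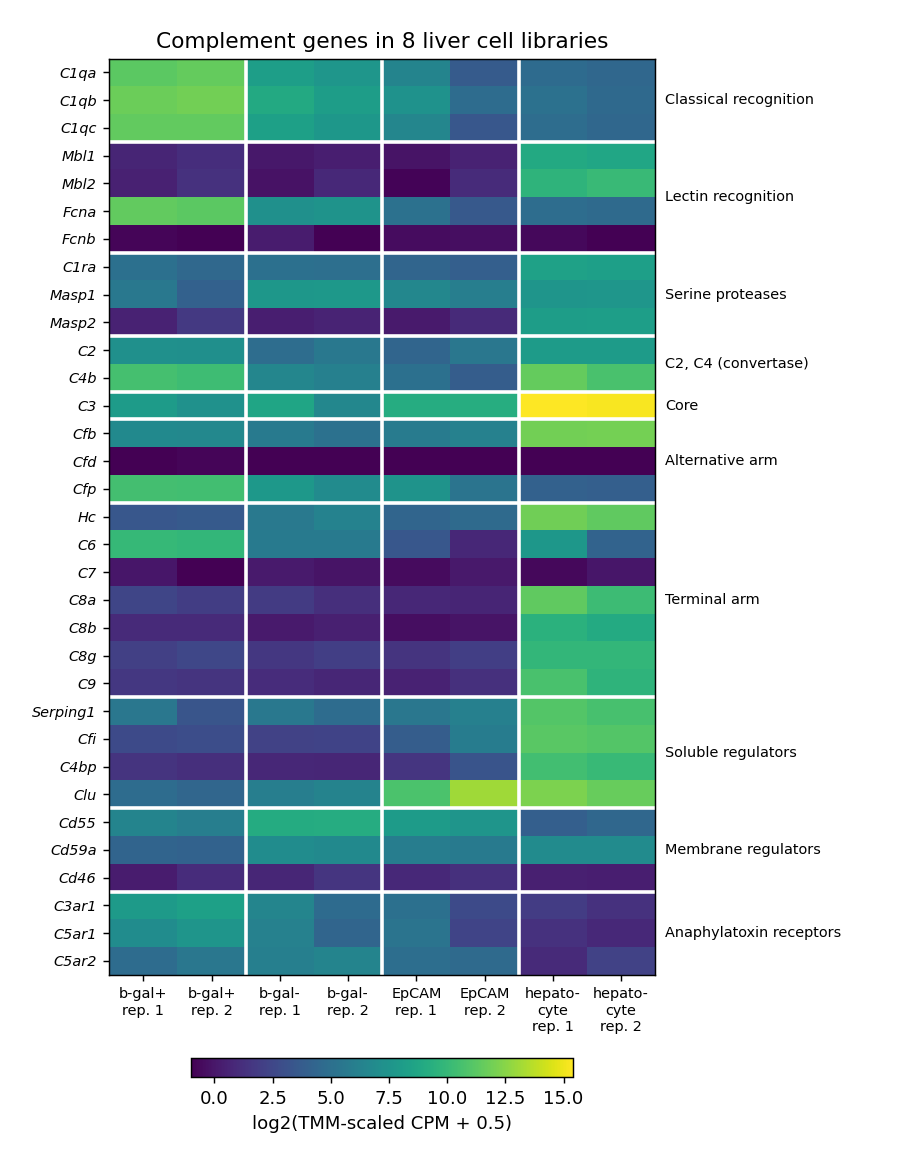
Level of each of the 33 complement genes (rows, ordered by arm) in the 8 libraries (columns, 2 per group), as colour on a log2(CPM + 0.5) scale. C1qa, C1qb, C1qc, Fcna, Cfp and C6 are brightest in b-gal+ cells, C3 and most of the terminal arm in hepatocytes, and Cfd, Fcnb, C7 and Cd46 are dark in every column.

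Of the 31 tested members, 10 were higher and 17 lower in b-gal+ cells than in hepatocytes (limma, adjusted p under 0.05), where 29.5% and 29.6% of all tested genes were. In b-gal- cells 9 were higher and 17 lower than in hepatocytes, against 33.5% and 29.7% of all genes. In EpCAM-positive cells 5 were higher and 19 lower than in hepatocytes, against 33.5% and 29.1%. The median log2 difference of the members from hepatocytes was -2.75, -3.32 and -3.81 in these comparisons, and that of all genes was 0.10, 0.17 and 0.15. Between the F4/80high gates 9 members were higher and 4 lower in b-gal+ cells, against 10.4% and 13% of all genes, with a median of 0.61 against -0.023. Against EpCAM-positive cells, b-gal+ cells had 12 members higher and 6 lower (14.7% and 17.9% of all genes). For b-gal- against EpCAM-positive cells the counts were 6 and 2 (5.63% and 6.57% of all genes). In that last comparison the number called higher was 0 without either b-gal- library or hepatocyte replicate 2, 1 without hepatocyte replicate 1 and 11 without EpCAM-positive replicate 1. The number called lower was 0 without either b-gal- library or hepatocyte replicate 2, 1 without either b-gal+ library or hepatocyte replicate 1, and 3 without EpCAM-positive replicate 1. Where limma called 0, 8 to 12 members were higher and 2 to 4 lower at an unadjusted p under 0.05, and the other tools were run on all 8 libraries only. Of EpCAM-positive cells against hepatocytes, the 5 higher calls became 3 without either b-gal+ library, 8 without EpCAM-positive replicate 2 and 2 without either hepatocyte library. Of b-gal+ against EpCAM-positive cells, the 6 lower calls became 3 without b-gal+ replicate 2 or either hepatocyte library. The 6 comparisons share libraries and 1 estimate of the spread, so their counts are not independent of each other.

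The scaling between libraries bears on the comparisons with hepatocytes. When the authors' own scaling replaced TMM, the median log2 difference of all genes from hepatocytes shifted by 0.77 in b-gal+, 0.96 in b-gal- and 1.17 in EpCAM-positive cells. The share of all calls that were higher then went from 49.9% to 76.7%, from 53.0% to 79.7% and from 53.5% to 84.9%. The members' counts moved less: 10 higher and 17 lower in b-gal+, 12 and 17 in b-gal-, and 7 and 16 in EpCAM-positive cells. Among the other 3 comparisons the same scaling shifted the median by -0.13 between the gates, -0.30 for b-gal+ and -0.15 for b-gal- against EpCAM-positive cells, and the share of calls that were higher went from 44.4% to 32.5%, from 45.1% to 25.6% and from 46.2% to 25.5%. The members called between the gates numbered 9 higher and 4 lower with either scaling.

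Among the recognition molecules, C1q was highest in b-gal+ cells. C1qa (chromosome 4, 136895917 to 136898803, GRCm38), which encodes the A chain of C1q, had 2514 and 2939 CPM in b-gal+ cells, 296 and 199 in the b-gal- gate, 84.5 and 12.6 in the EpCAM-positive group and 25.8 and 22.4 in hepatocytes. Both b-gal+ libraries stood far above the other 6. C1qb, the B chain, had 3397 and 3804 CPM in b-gal+ cells, 512 and 280.1 in the b-gal- gate, 163 and 26.9 in the EpCAM-positive group and 33.9 and 23.5 in hepatocytes. C1qc, the C chain, had 2840.3 and 2899 CPM in b-gal+ cells, 325 and 206 in the b-gal- gate, 94.3 and 10.7 in the EpCAM-positive group and 29.2 and 21.9 in hepatocytes. The log2 difference of the b-gal+ from the b-gal- gate was 3.48 ± 0.76 (SE; adjusted p = 0.0186) for C1qa, 3.24 ± 0.76 (SE; adjusted p = 0.0237) for C1qb and 3.47 ± 0.87 (SE; adjusted p = 0.0298) for C1qc. Each SE draws on the replicates of all 4 groups. On the log2 scale the replicates of the chains differed by 2.57 to 3.08 in EpCAM-positive cells and by at most 0.87 in any other group. The groups did not overlap for any of the chains. Leaving out a single gate library ended each of these calls, with adjusted p of 0.0535 to 0.115 for C1qa, 0.0526 to 0.145 for C1qb and 0.0746 to 0.161 for C1qc over the 4 gate libraries, while the log2 differences stayed between 2.81 and 3.80. They also ended without hepatocyte replicate 2 (0.0507, 0.0585 and 0.0709) and, for C1qb and C1qc, without hepatocyte replicate 1 (0.0571 and 0.0693). Against hepatocytes, b-gal+ cells were higher by 6.79, 6.97 and 6.80 on the log2 scale (adjusted p of 2.83e-04, 2.50e-04 and 5.26e-04), and no library left out ended those calls.

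The C1q chains kept similar proportions to each other across libraries. The reads of C1qc were 0.979 to 1.13 times those of C1qa in the b-gal+, b-gal-, hepatocyte and first EpCAM-positive libraries, and 0.851 times in EpCAM-positive replicate 2. C1qb over C1qa was lowest in hepatocyte replicate 2 (1.05) and highest in EpCAM-positive replicate 2 (2.14). The genes lie side by side on chromosome 4, in the order C1qb, C1qc and C1qa, on the minus strand, with gaps of 3.62 and 2.85 kb. The levels of 8 Kupffer cell markers moved with them: in b-gal- cells the markers were at 3.92% to 20.1% of their b-gal+ mean, and C1qa at 10.9% and 7.30%. What part of the C1q RNA in b-gal- cells came from Kupffer cells was not tested.

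Ficolin A, a lectin that binds sugar patterns and feeds the lectin arm, followed C1q. Its gene Fcna (chromosome 2, 25624666 to 25628030) had 2854 and 2521 CPM in b-gal+ cells, 151 and 172 in the b-gal- gate, 34.6 and 11.3 in the EpCAM-positive group and 29.0 and 24.9 in hepatocytes. The log2 difference between the gates was 4.05 ± 0.45 (SE; adjusted p = 0.00171), and it passed under every alternative and without any single library. Fcna was also higher in b-gal+ cells than in hepatocytes, by 6.61 ± 0.45 (SE; adjusted p = 3.35e-05). The other ficolin, Fcnb, had 0 to 18 reads per library and was not tested. The mannose-binding lectins went the other way. Mbl1 had 497 and 428 CPM in hepatocytes and 0.425 to 1.69 in the other 6 libraries. Mbl2 had 835 and 1098 CPM in hepatocytes and 0.0608 to 2.01 elsewhere. So the lectin arm's recognition genes were split, with Fcna called higher in b-gal+ cells and Mbl1 (-7.94) and Mbl2 (-9.00) called lower there than in hepatocytes (adjusted p of 8.59e-06 and 4.68e-05).

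Promoter sequence was read for the members that shared a cell source, from the RefSeq table on GRCm38.p6, which has an entry for 25 of the 33 members. The 250 bases before each start were searched on both strands for 4 short motifs, and the same search was made in all 32851 windows of the table. A member was counted once if any of its windows held a match, whereas the share of all windows counts each window, so these are unlike measures. GAGGAA, a core bound by PU.1 and other ETS factors of macrophages, was found in 23.3% of all windows, in 3 of the 7 b-gal+ members with an entry and in 0 of the 11 hepatocyte members. The 60-base stretches that hold it follow for C1qb, C1qc and Fcna, 5′ to 3′ along the gene's strand, with the match or its reverse complement (TTCCTC) in capitals; Fcna holds 3 matches.
C1qb (chr4:136886201-136886260, minus strand): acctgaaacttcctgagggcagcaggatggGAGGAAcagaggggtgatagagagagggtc
C1qc (chr4:136893075-136893134, minus strand): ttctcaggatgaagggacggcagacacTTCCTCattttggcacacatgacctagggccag
Fcna (chr2:25628105-25628164, minus strand): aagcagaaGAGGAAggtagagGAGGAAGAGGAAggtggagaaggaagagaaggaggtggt
A match describes these letters and is not evidence of binding. The matches begin 30, 193 and, for the one nearest the start in Fcna, 163 bases before the start, so their positions differ between the genes.

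The initiating serine proteases did not share one source. C1ra (chromosome 6, 124512405 to 124523443), the C1r protease carried by C1q, had 32.5 and 23.2 CPM in b-gal+ cells, 32.4 and 31.4 in the b-gal- gate, 19.8 and 15.5 in the EpCAM-positive group and 339 and 306 in hepatocytes, so hepatocytes, where C1q RNA was low, were highest for its protease. Its log2 difference of b-gal+ cells from hepatocytes was -3.53 ± 0.20 (SE; adjusted p = 1.82e-05). Masp2, the protease that cleaves C4 and C2 for the lectin arm, had 279.5 and 289 CPM in hepatocytes and 0.638 to 2.74 elsewhere. Masp1 (chromosome 16, 23449417 to 23520815), whose product activates MASP-2, had 46.9 and 16.7 CPM in b-gal+ cells, 202 and 211 in the b-gal- gate, 97.5 and 65.5 in the EpCAM-positive group and 187 and 198 in hepatocytes. Both b-gal- libraries were the highest, just above the hepatocyte pair. Masp1 was lower in b-gal+ than in b-gal- cells, with a log2 difference of -2.86 ± 0.44 (SE; adjusted p = 0.00508), and this call held without any single library. Between b-gal- cells and hepatocytes Masp1 differed by 0.10 ± 0.44 (95% interval -0.95 to 1.15, adjusted p = 0.855), and it was called higher in b-gal- cells with the authors' scaling (1.31, adjusted p = 0.0361). EpCAM-positive cells were lower than hepatocytes, -1.26 ± 0.44 (SE; adjusted p = 0.0416), but that call ended without any one b-gal-, EpCAM-positive or hepatocyte library (0.0577 to 0.169), with no filter (0.0509) and with edgeR (0.0512). With the authors' scaling the direction turned (0.11). C1ra has close relatives (C1rb), and Masp2 overlaps Tardbp on the opposite strand; whether counting used strand is not given in the sources used here, so reads of such neighbours may be mixed.

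C2 and C4, which together form the convertase of the classical and lectin arms, were abundant in both b-gal+ cells and hepatocytes. C4b (chromosome 17, 34728380 to 34743882), the gene of C4, had 1531 and 1281 CPM in b-gal+ cells, 93.6 and 69.1 in the b-gal- gate, 32.7 and 13.7 in the EpCAM-positive group and 3032 and 1685 in hepatocytes. C2 (chromosome 17, 34862604 to 34898265) had 153 and 146 CPM in b-gal+ cells, 28.4 and 48.1 in the b-gal- gate, 20.1 and 45.8 in the EpCAM-positive group and 255 and 255 in hepatocytes. Both hepatocyte libraries were the highest for each gene, and the b-gal+ pair came next. b-gal+ cells were at 64.9% and 54.3% of the mean hepatocyte level for C4b and at 60.1% and 57.1% for C2. The log2 differences of b-gal+ cells from hepatocytes were -0.69 ± 0.45 for C4b (95% interval -1.76 to 0.38, adjusted p = 0.228) and -0.77 ± 0.39 for C2 (-1.70 to 0.17, 0.135), neither of which was called. With the authors' scaling both turned positive (0.36 and 0.28), and C2 was called lower without either EpCAM-positive library (0.0408 without replicate 1 and 0.0364 without replicate 2).

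Between the F4/80high gates, C4b had the second largest difference among the members, after C6. It was higher in b-gal+ than in b-gal- cells by 4.11 ± 0.45 (SE; adjusted p = 0.00164) and kept the call in every alternative. C2 was higher by 2.00 ± 0.39 (SE; adjusted p = 0.0127), a call that ended without either b-gal+ library (0.0692 and 0.0703) or b-gal- replicate 1 (0.0626). In b-gal- and EpCAM-positive cells C4b was at 0.580% to 3.97% of the hepatocyte mean. C4a, a near-identical neighbour that encodes the sex-limited protein, had 15.3 and 22.2 CPM in b-gal+ cells, 3.07 and 4.16 in the b-gal- gate and 95.2 and 16.0 in hepatocytes, so reads of the pair may be shared between them. C2 and Cfb lie 85 bases apart on chromosome 17, and C2 also overlaps Zbtb12 on the opposite strand.

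C3, the protein on which all arms converge, made up most of the members' reads in hepatocytes. C3 (chromosome 17, 57203970 to 57228136) had 263 and 158 CPM in b-gal+ cells, 396 and 96.9 in the b-gal- gate, 569 and 603 in the EpCAM-positive group and 43758 and 39603 in hepatocytes. The hepatocyte pair exceeded every other library by over 1 order of magnitude, and C3 reads were 2.41% and 2.09% of all hepatocyte reads. The log2 difference from hepatocytes was -7.67 ± 0.64 (SE; adjusted p = 7.44e-05) in b-gal+, -7.73 ± 0.64 (SE; adjusted p = 6.61e-05) in b-gal- and -6.15 ± 0.64 (SE; adjusted p = 2.31e-04) in EpCAM-positive cells. Between the gates C3 differed by 0.055 ± 0.64 (95% interval -1.46 to 1.57, adjusted p = 0.970), with replicate 1 above replicate 2 in both gates. The sign of that small difference turned when b-gal+ replicate 1 (-0.31) or the second b-gal- library (-0.96) was left out, and in both count models (-0.23 in each).

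The alternative arm was divided between cell groups as well. Cfb (chromosome 17, 34856374 to 34862518), factor B, had 109 and 101 CPM in b-gal+ cells, 53.5 and 34.1 in the b-gal- gate, 55.2 and 75.2 in the EpCAM-positive group and 3905 and 3973 in hepatocytes. Hepatocytes were highest, and b-gal+ cells were above b-gal- cells by 1.28 ± 0.25 (SE; adjusted p = 0.0119). This call ended without either b-gal+ library (0.0720 and 0.0585) or b-gal- replicate 2 (0.0822) and with edgeR (0.0505). Cfp (chromosome X, 20925454 to 20931555) encodes properdin, which stabilises the C3 convertase. It had 1449 and 1370.3 CPM in b-gal+ cells, 212 and 122 in the b-gal- gate, 169 and 39.0 in the EpCAM-positive group and 16.7 and 15.0 in hepatocytes. Hepatocytes were lowest for Cfp and highest for Cfb. Cfp was higher in b-gal+ cells than in hepatocytes by 6.43 ± 0.62 (SE; adjusted p = 1.43e-04) and higher than in b-gal- cells by 3.13 ± 0.62 (SE; adjusted p = 0.0131). The latter call ended without either b-gal+ library (0.0701 and 0.0709) or b-gal- replicate 2 (0.0916). Cfp was also higher in EpCAM-positive cells than in hepatocytes, by 2.33 ± 0.62 (SE; adjusted p = 0.0151), and that call ended without either hepatocyte library (0.0761 and 0.0884). Cfd, factor D, the protease that activates factor B and is known as a product of fat cells, had 0 reads in 7 libraries and 2 in b-gal+ replicate 2, which allows up to 0.313 CPM before scaling (exact 95% upper bound).

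**Figure D2:**
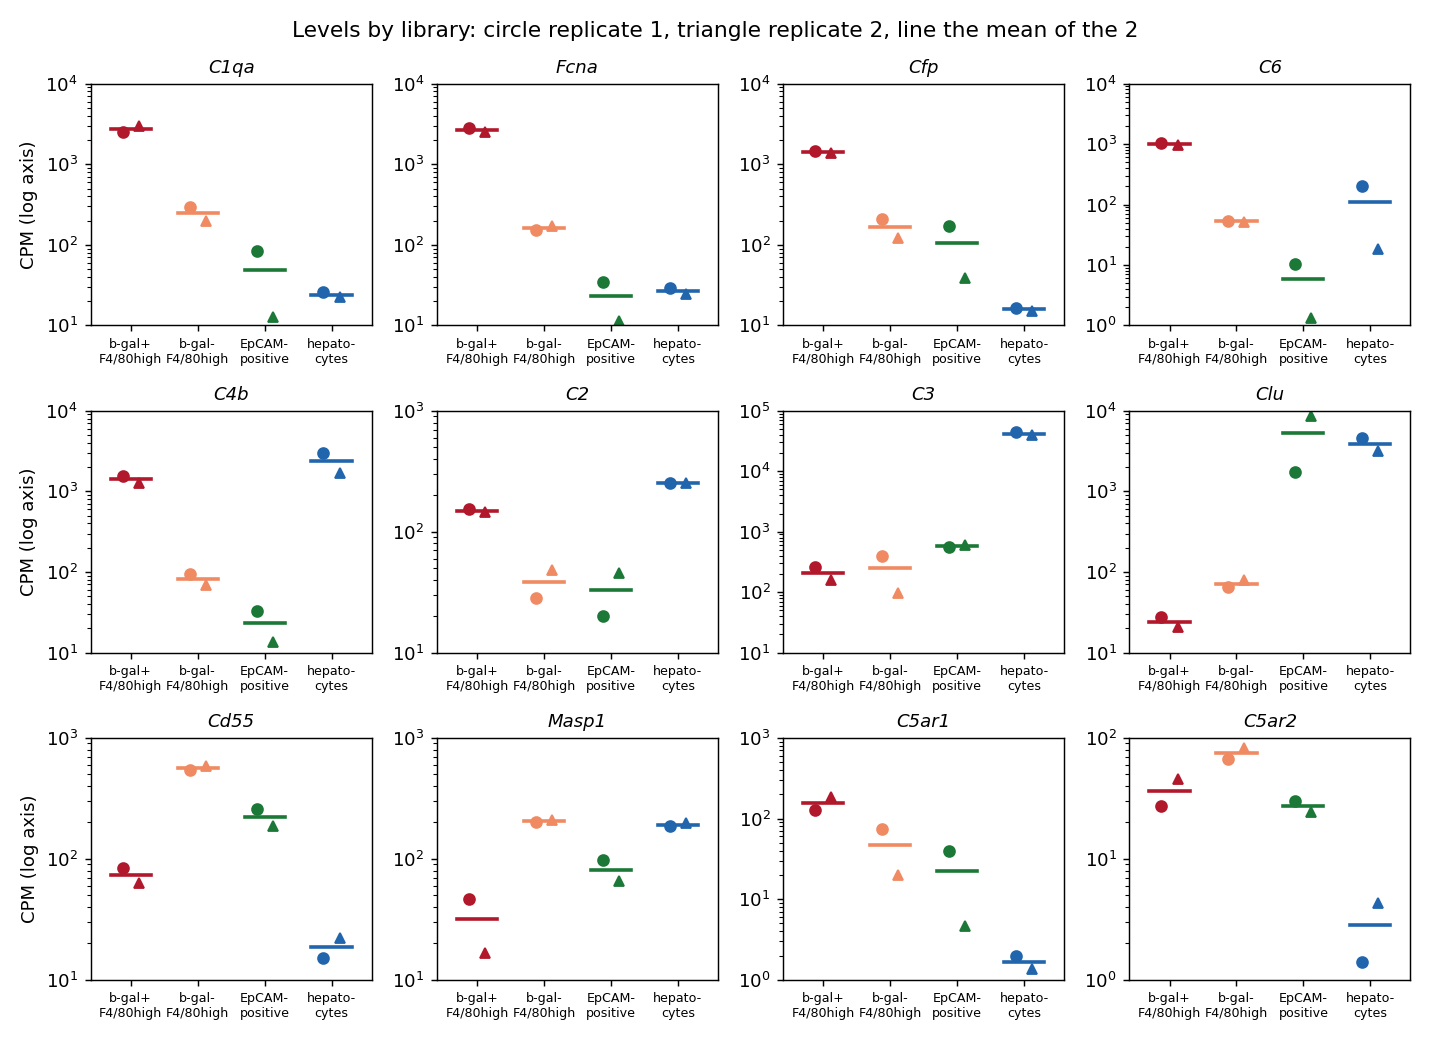
CPM of selected members in each library on log axes, with circles for replicate 1, triangles for replicate 2 and a line at the mean of the pair, by cell group. C1qa and C6 peak in b-gal+ cells, C4b is high in b-gal+ cells and hepatocytes, and Clu differs between the EpCAM-positive replicates (1729 and 8729.5 CPM).

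In the terminal arm, 5 of 7 members were highest in hepatocytes. Hc (chromosome 2, 34983331 to 35061438), the gene of C5, had 10.3 and 11.8 CPM in b-gal+ cells, 49.6 and 77.5 in the b-gal- gate, 19.7 and 25.1 in the EpCAM-positive group and 3724 and 2757 in hepatocytes. Among the chains of C8, C8a had 2685 and 1243 CPM in hepatocytes and at most 4.79 elsewhere. C8b had 721 and 533 CPM in hepatocytes and at most 1.48 elsewhere, and C8g had 936 and 916 and at most 5.15. C9, which forms the ring of the pore, had 1657 and 817 CPM in hepatocytes and at most 2.68 elsewhere. Each of these 5 was lower in b-gal+, b-gal- and EpCAM-positive cells than in hepatocytes, with log2 differences from -10.06 for C8a in EpCAM-positive cells to -5.68 for Hc in b-gal- cells, and no alternative ended one of these calls. Hc differed from C8 and C9 in one respect: b-gal- cells held more of it than b-gal+ cells, with a log2 difference of -2.44 ± 0.26 (SE; adjusted p = 0.00158), and this call held without any single library. C7, which joins the complex after C6, had 0 to 16 reads per library, too few to set the groups in order.

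C6 was the exception in the terminal arm. C6 (chromosome 15, 4727175 to 4814967), which binds C5b to start the complex, had 1029 and 956 CPM in b-gal+ cells, 53.3 and 52.0 in the b-gal- gate, 10.3 and 1.31 in the EpCAM-positive group and 205 and 18.2 in hepatocytes. Both b-gal+ libraries were the highest, at more than 4 times the hepatocyte replicate 1 level, and the hepatocyte replicates themselves were far apart. The log2 difference of b-gal+ from b-gal- cells was 4.22 ± 1.17 (SE; adjusted p = 0.0424), from EpCAM-positive cells 7.81 ± 1.17 (SE; adjusted p = 0.00415) and from hepatocytes 4.00 ± 1.17 (SE; adjusted p = 0.0225). The call against b-gal- cells ended without any one of the 4 gate libraries (0.128 to 0.170), with no filter on low counts (0.0586) and with edgeR (0.0639), although over the libraries left out the log2 difference stayed between 4.17 and 4.31. Against hepatocytes it ended without either b-gal+ library (0.0861 and 0.0812) or hepatocyte replicate 2 (0.124, log2 difference 2.24) and with edgeR (0.0644). Its neighbour C7 lies 174 kb away on the opposite strand of chromosome 15 and was near 0 in the same cells. In b-gal- cells C6 was at 5.37% and 5.24% of its b-gal+ mean, the lowest share among the 8 b-gal+ members.

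The promoters of hepatocyte members were searched for motifs of hepatocyte factors, with members and windows counted as for GAGGAA above. GTTAAT (reverse complement ATTAAC), the core of the HNF1 site, was found in 6.43% of all windows, in 5 of the 11 hepatocyte members with an entry (C1ra, C4bp, C8a, C8b and Hc) and in 1 of the 7 b-gal+ members (Cfp). TTNNGCAA (reverse complement TTGCNNAA), a motif of C/EBP factors, was in 9.56% of all windows and in 2 of the 11 (C3 and C9). TGTTTAC, a motif of FOXA factors, was in 3.17% of all windows and in 0 of the 11. GAGGAA does not overlap these motifs. Stretches of 60 bases around the matches are shown for 3 terminal members, for C4bp and for the most abundant member, C3. The match or its reverse complement is in capitals. The C3 stretch holds the C/EBP motif, as its reverse complement, and the others hold the HNF1 core.
Hc (chr2:35061454-35061513, minus strand): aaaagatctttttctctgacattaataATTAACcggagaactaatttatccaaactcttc
C8a (chr4:104876473-104876532, minus strand): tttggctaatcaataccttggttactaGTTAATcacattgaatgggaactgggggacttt
C8b (chr4:104766084-104766143, plus strand): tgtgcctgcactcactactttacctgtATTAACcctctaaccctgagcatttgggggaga
C4bp (chr1:130661650-130661709, minus strand): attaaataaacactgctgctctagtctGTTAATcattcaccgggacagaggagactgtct
C3 (chr17:57228148-57228207, minus strand): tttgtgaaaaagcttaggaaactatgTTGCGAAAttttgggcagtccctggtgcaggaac
The HNF1 matches begin 74 (Hc), 107 (C8a), 206 (C8b) and 64 (C4bp) bases before the start. No factor's binding was measured, and the absence of a match says only that these letters are not in the window.

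Of the soluble regulators, Serping1, Cfi and C4bp were highest in hepatocytes. Cfi (chromosome 3, 129835884 to 129875332), factor I, which cleaves C3b and C4b, had 5.90 and 6.88 CPM in b-gal+ cells, 4.19 and 4.45 in the b-gal- gate, 14.1 and 58.0 in the EpCAM-positive group and 2361 and 2124 in hepatocytes. C4bp, the C4b-binding protein that serves as its cofactor, had 1380.1 and 1053 CPM in hepatocytes and 1.17 to 9.09 elsewhere, with the highest value in EpCAM-positive replicate 2. Serping1, the C1 inhibitor, had 45.5 and 9.61 CPM in b-gal+ cells, 47.0 and 27.0 in the b-gal- gate, 44.9 and 69.1 in the EpCAM-positive group and 2100.1 and 1592 in hepatocytes. All 3 were lower in b-gal+ cells than in hepatocytes, with log2 differences of -8.35, -8.90 and -6.41 (adjusted p of 3.17e-05, 2.02e-05 and 2.04e-04). In b-gal+ cells Serping1 was higher in replicate 1 than in replicate 2 by 2.19 on the log2 scale, a ratio that 0.722% of tested genes matched or exceeded in that pair. A list of 7 stellate cell and fibroblast markers, all with reads in every library, summed to 808 and 130.0 CPM in the same pair. Lrat went the other way (24.6 and 28.2 CPM). Every other marker was higher in replicate 1, such as Col3a1 (261 and 18.3) and Dcn (240.0 and 49.4). The part of this list in the Serping1 level was not tested. Cfi was higher in EpCAM-positive than in b-gal+ cells, with a log2 difference of -2.09 ± 0.56 (SE; adjusted p = 0.0298) for b-gal+ minus EpCAM-positive cells. That call ended without either b-gal+ library (0.124 and 0.111) or either hepatocyte library (0.0700 and 0.0713).

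Clusterin was the leading complement gene of EpCAM-positive cells. Clu (chromosome 14, 65968483 to 65981547), a secreted chaperone that binds terminal complexes, had 27.7 and 20.8 CPM in b-gal+ cells, 64.6 and 79.3 in the b-gal- gate, 1729 and 8729.5 in the EpCAM-positive group and 4631 and 3166 in hepatocytes. It made up 48.2% and 86.4% of the members' reads in the EpCAM-positive libraries. EpCAM-positive replicate 2 was the highest library of all, whereas replicate 1 was below both hepatocyte libraries, so the groups overlapped. Clu was higher in EpCAM-positive than in b-gal+ cells (log2 difference of b-gal+ minus EpCAM-positive cells -7.31 ± 0.68 SE, adjusted p = 0.00146) and than in b-gal- cells (-5.75 ± 0.68 SE, adjusted p = 0.0172 for b-gal- minus EpCAM-positive cells). The call against b-gal- cells ended without either b-gal- library (0.0836 and 0.106) or hepatocyte replicate 2 (0.0503). Against hepatocytes it differed by 0.021 ± 0.68 (95% interval -1.61 to 1.65, adjusted p = 0.981), and its direction rested on single libraries: without EpCAM-positive replicate 2 it was called lower (-1.15, adjusted p = 0.0211), and without EpCAM-positive replicate 1 it was called higher (1.18, adjusted p = 0.0232). The cholangiocyte markers summed to 2064 and 6615 CPM in the EpCAM-positive replicates (mostly Spp1) and Alb to 652 and 4704, so replicate 2 was also higher in both of these, and their part in the Clu level was not tested.

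Cd55 and Cd59a, membrane regulators that protect cells from their own complement, had their high levels outside b-gal+ cells. Cd55 (chromosome 1, 130439027 to 130462744), which speeds the decay of convertases, had 83.5 and 63.4 CPM in b-gal+ cells, 541 and 582 in the b-gal- gate, 257 and 187 in the EpCAM-positive group and 15.1 and 22.0 in hepatocytes. The groups did not overlap, with b-gal- cells highest and hepatocytes lowest. Cd55 was lower in b-gal+ than in b-gal- cells by a log2 difference of -2.94 ± 0.25 (SE; adjusted p = 9.17e-04). Cd59a (chromosome 2, 104095801 to 104115354), which blocks the last step of pore formation, had 19.3 and 17.0 CPM in b-gal+ cells, 124 and 109 in the b-gal- gate, 61.9 and 53.8 in the EpCAM-positive group and 119 and 123 in hepatocytes. Its difference between the gates was -2.65 ± 0.15 (SE; adjusted p = 9.01e-04), and both calls held in every alternative. Against hepatocytes, b-gal+ cells were higher in Cd55 (1.97 ± 0.25 SE, adjusted p = 4.91e-04) and lower in Cd59a (-2.71 ± 0.15 SE, adjusted p = 1.45e-05). In b-gal- cells Cd59a was close to the hepatocyte level, with a difference of -0.055 ± 0.15 (95% interval -0.40 to 0.29, adjusted p = 0.763). With the authors' scaling that difference became 1.15 (adjusted p = 5.16e-04). EpCAM-positive cells were lower in Cd59a than hepatocytes, with a difference of -1.06 ± 0.15 (SE; adjusted p = 8.02e-04), but higher by 0.31, uncalled, with that scaling. Cd46, a cofactor of factor I that in mice is known mainly from testis, had 0.671 to 2.35 CPM in the 8 libraries. The endothelial marker list was also higher in b-gal- than in b-gal+ cells, 16375 and 19078 against 3488 and 2606 CPM, and its part in the Cd55, Cd59a, Masp1 and Hc levels was not tested.

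The receptors for the anaphylatoxins C3a and C5a were all lowest in hepatocytes. C3ar1 (chromosome 6, 122847138 to 122856161), the C3a receptor, had 249.5 and 321 CPM in b-gal+ cells, 88.8 and 26.4 in the b-gal- gate, 32.2 and 6.02 in the EpCAM-positive group and 3.25 and 2.00 in hepatocytes. C5ar1 (chromosome 7, 16246743 to 16259540), the main C5a receptor, had 128 and 187 CPM in b-gal+ cells, 74.9 and 19.9 in the b-gal- gate, 40.0 and 4.64 in the EpCAM-positive group and 1.99 and 1.36 in hepatocytes. Both b-gal+ libraries were highest for each. C5ar2, the second C5a receptor, had 27.6 and 45.7 CPM in b-gal+ cells, 67.4 and 83.0 in the b-gal- gate, 30.0 and 24.6 in the EpCAM-positive group and 1.40 and 4.31 in hepatocytes, so that its order between the gates was reversed. All 3 were higher than in hepatocytes in b-gal+ cells, by 6.53, 6.17 and 3.57 on the log2 scale (adjusted p of 4.79e-04, 0.00153 and 4.99e-04), and in b-gal- cells, by 4.00, 4.19 and 4.64 (0.00456, 0.00847 and 1.38e-04). The C5ar1 call in b-gal- cells ended without b-gal- replicate 1 (0.0508) or hepatocyte replicate 2 (0.0619). Between the gates the differences were 2.53 ± 0.82 (SE; adjusted p = 0.0689) for C3ar1, 1.98 ± 0.99 (SE; adjusted p = 0.206) for C5ar1 and -1.06 ± 0.45 (SE; adjusted p = 0.145) for C5ar2, none of which passed the threshold (unadjusted p of 0.0181, 0.0854 and 0.0518). The C3ar1 difference passed with the replicate block (0.0296), with DESeq2 (0.0198) and without EpCAM-positive replicate 1 (0.0261) or EpCAM-positive replicate 2 (0.0211).

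C3ar1 and C5ar1 were higher in replicate 1 than in replicate 2 of the b-gal- and EpCAM-positive pairs. In b-gal- cells the replicates differed by 1.73 for C3ar1 and 1.89 for C5ar1 on the log2 scale, ratios matched or exceeded by 1.71% and 1.37% of tested genes. The ratio of C5ar1 to C5ar2 reads was 4.62 and 4.09 in b-gal+ cells, and 1.11 and 0.240 in b-gal- cells. The b-gal- pair thus changed the order of the receptors from one replicate to the other. So did the EpCAM-positive pair (1.33 and 0.188) and the hepatocyte pair (1.42 and 0.315), the latter on 17 to 54 reads per receptor and library. Ccr2, a monocyte marker, had 378 and 103 CPM over the b-gal- pair and 243 and 58.6 over the EpCAM-positive pair. A list of 6 monocyte markers that includes it summed to 8836 and 1133 CPM over the b-gal- pair and 4816 and 1144 over the EpCAM-positive pair, and a list of 8 neutrophil markers to 389 and 37.3 CPM over the first pair and 385 and 27.1 over the other. Every marker of both lists had reads in these libraries. Most of the monocyte sum was Fn1, with 8115 and 972 CPM over the b-gal- pair and 4255 and 1029 over the EpCAM-positive pair. Fn1 was also high in hepatocytes (6085 and 5845 CPM), so the sum does not measure monocytes alone. Both lists were higher in replicate 1 of these pairs. In the b-gal+ pair they were also higher in replicate 1. The monocyte list summed to 3325 and 421 CPM there and the neutrophil list to 217 and 153. Within the neutrophil list Csf3r went the other way (101 and 143 CPM), while every other marker was higher in replicate 1, such as S100a9 (56.5 and 3.86). C3ar1 and C5ar1 were lower in replicate 1 of the b-gal+ pair. The part of monocytes and neutrophils in the receptor levels was not tested. The receptors C5ar1 and C5ar2 are neighbours on chromosome 7, 2.59 kb apart on the same strand.

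**Figure D3:**
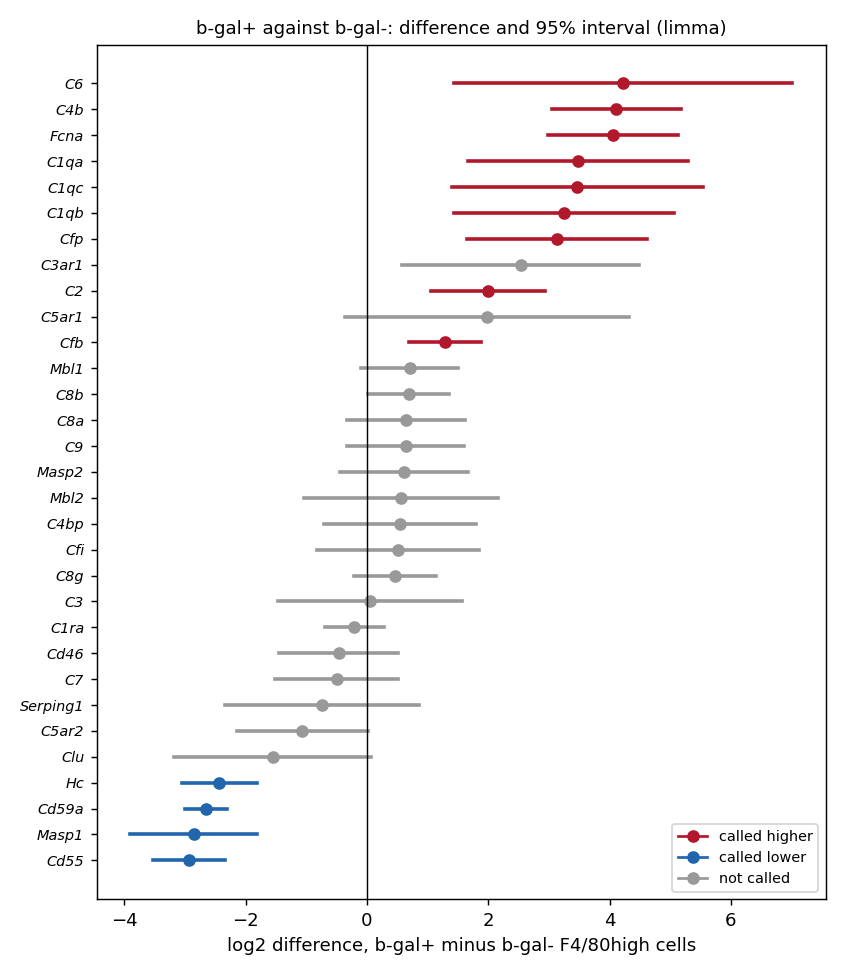
Log2 difference of each of the 31 tested members between b-gal+ and b-gal- F4/80high cells, with its 95% interval from limma; red points were called higher, blue points lower and grey points not called. C6, C4b and Fcna lie farthest to the right (4.22, 4.11 and 4.05) and Cd55, Masp1, Cd59a and Hc are called on the left (-2.94 to -2.44).

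Between the F4/80high gates, 13 of the 31 tested members were called. The members called higher were 29.0% and those called lower 12.9%, against 10.4% and 13% of all tested genes. The share called lower was thus near that of all genes. The members called higher in b-gal+ cells were the 3 C1q chains, Fcna, C2, C4b, Cfb, Cfp and C6, which act in recognition, convertases and the start of the pore. Those called lower were the membrane regulators Cd55 and Cd59a, the protease Masp1 and Hc. Calls of Fcna, C4b, Cd55, Cd59a, Hc and Masp1 held without each of the 8 libraries in turn, whereas those of C1qa, C1qb, C1qc, C2, C6, Cfb and Cfp did not. The number of members called higher was 2 without either b-gal+ library, 4 without b-gal- replicate 1, 3 without b-gal- replicate 2 and 6 without hepatocyte replicate 2, and 7 to 11 without each of the other 3.

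The levels of the 16 hepatocyte members in the other cells were set beside those of 8 hepatocyte markers. In the 6 other libraries the median member was at 0.283% to 0.664% of its hepatocyte mean, and the median marker at 0.0627% to 0.432%. Mbl2 was the only member within the range of the markers in all 6 libraries. In b-gal+ replicate 1 every other member was above the highest marker. C2 stood far above the marker range in every library, from 7.91% in EpCAM-positive replicate 1 to 60.1% in b-gal+ replicate 1. C1ra was also above it, at 4.80% to 10.1%, as was Serping1, at 0.521% to 3.74%. C4b reached 64.9% in b-gal+ cells, and Hc was at 1.53% and 2.39% in b-gal- cells. Cfb was at 2.77% and 2.56% in b-gal+ cells, where the highest marker was at 0.180% and 0.348%. In EpCAM-positive replicate 2 the highest marker, Alb, reached 2.86%, above Cfi at 2.59%. Whether hepatocyte RNA in the sorted libraries contributed to the lowest levels was not tested.

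**Figure D4:**
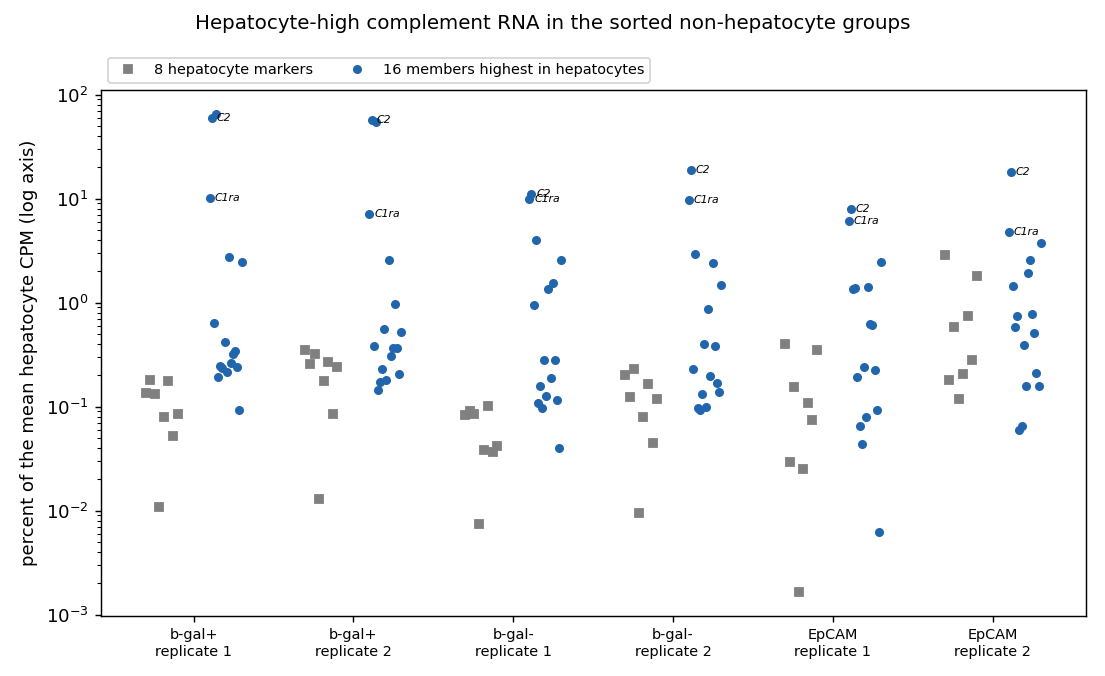
Level of the 16 hepatocyte members and of 8 hepatocyte markers in each of the 6 other libraries, as percent of the mean hepatocyte CPM on a log axis. The median member lies at 0.283% to 0.664%, while C2 and C4b reach 60.1% and 64.9% in b-gal+ replicate 1.

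Levels of different genes were compared per kilobase of exon, as the mean of the 2 libraries (RPKM from TMM-scaled CPM). In hepatocytes C3 led with 8104 RPKM, followed by Cfb (1394), Clu (1134), Cfi (1010.2), Mbl2 (888) and Serping1 (794). In b-gal+ cells the order was C1qb (3309), C1qa (2622), Fcna (1956), C1qc (1486), Cfp (812) and C6 (279). So C1q and ficolin A RNA in b-gal+ cells stood above every hepatocyte member but C3 on this scale. In b-gal- cells C1qb (364) and C1qa (238) were still the first 2, with C1qc (138), Fcna (117) and Cd55 (116) next. In EpCAM-positive cells Clu (1521) was followed by C3 (114) and C1qb (87.1).

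Within hepatocytes a few members differed between the 2 pools. C6 was higher in replicate 1 by 3.46 on the log2 scale (205 and 18.2 CPM), and 0.125% of tested genes had as large a ratio in either direction in that pair. C8a (1.11), C9 (1.02) and C4b (0.85) were also higher in replicate 1, with 3.43%, 4.44% and 7.10% of genes as far apart. C5ar2 differed in the opposite direction, by -1.34 (1.40 and 4.31 CPM), with 1.94% of genes as far apart. Among the other complement genes, C4a, which encodes the sex-limited protein, was higher in replicate 1 by 2.53 (95.2 and 16.0 CPM; 0.236% of genes), and Apcs, the pentraxin serum amyloid P, by 1.54 (2397 and 822 CPM; 1.15%). C8b, C8g, C3, Cfb, Cfi and the Mbl genes were closer, with absolute differences of 0.03 to 0.44. Y-linked genes had 2863 reads in hepatocyte replicate 1 and 0 in replicate 2, and Xist had 414 and 1836 CPM. The sex of the mice and every other difference between the replicate 1 and replicate 2 pools cannot be told apart, and the differences within the hepatocyte pair are given without a test.

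**Figure D5:**
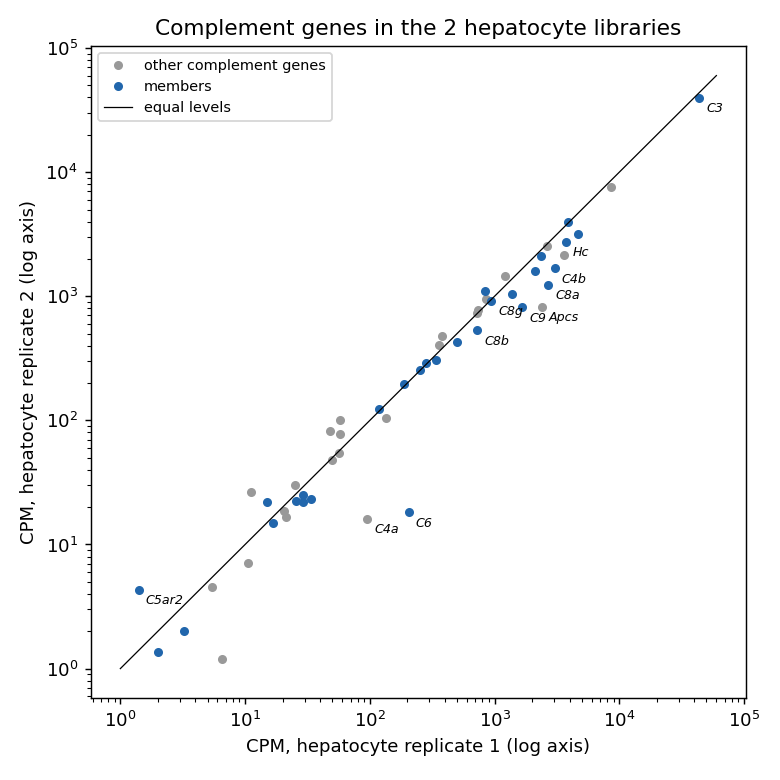
CPM in hepatocyte replicate 1 (x) against replicate 2 (y) on log axes for members and other complement genes at 1 CPM or more in both, with a line of equal levels. C6 (205 and 18.2), C4a (95.2 and 16.0) and Apcs (2397 and 822) lie below the line, and C3 and Cfb lie near it.

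A further list of complement genes, regulators and receptors outside the set held 30 symbols, of which 29 were found and 27 tested. Of the 27, 6 were higher and 15 lower in b-gal+ cells than in hepatocytes, with a median log2 difference of -1.79. Of all tested genes, 29.5% were higher and 29.6% lower. The counts were 7 and 15 in b-gal- cells (33.5% and 29.7% of all genes) and 5 and 18 in EpCAM-positive cells (33.5% and 29.1%). Liver plasma proteins made up the low end: Cpn2 and Cpn1, the subunits of the carboxypeptidase that inactivates anaphylatoxins, averaged 1336 and 728 CPM in hepatocytes. They were lower in b-gal+ cells by log2 differences of -9.20 (adjusted p = 1.52e-05) and -8.49 (6.95e-05). Vtn, vitronectin, which binds terminal complexes, had 8653 and 7559 CPM in hepatocytes and 31.6 and 32.9 in b-gal+ cells (-7.95, 6.96e-05). Crp and Apcs, the pentraxins, and Cfhr2, a factor H-related gene, were lower, with differences of -7.72, -8.44 and -7.96 (1.11e-04, 8.16e-05 and 2.30e-05).

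Between the gates 2 of the 27 were higher and 4 lower in b-gal+ cells. These are 7.41% and 14.8% of the list, near the 10.4% and 13% of all tested genes. Vsig4, the complement receptor CRIg of Kupffer cells, had 2176 and 2141 CPM in b-gal+ cells, 112 and 127 in the b-gal- gate, 19.2 and 2.24 in the EpCAM-positive group and 21.4 and 16.5 in hepatocytes. Its log2 difference between the gates was 4.18 ± 0.79 (SE; adjusted p = 0.0109), similar in size to those of C4b and Fcna. Vsig4 is also 1 of the 8 Kupffer cell markers above. Colec12, a scavenger receptor with a collectin domain, was higher in b-gal+ cells by 1.85 ± 0.38 (SE; adjusted p = 0.0154). Cd93 and Colec10 were lower. Cd93, an endothelial glycoprotein once described as a C1q receptor, had 148 and 211 CPM in the b-gal+ gate and 538 and 691 in the b-gal- gate (-1.78 ± 0.39 SE, adjusted p = 0.0179). Colec10, collectin liver 1 of the lectin arm, had 85.9 and 46.1 CPM in the b-gal+ gate and 141 and 202 in the b-gal- gate (-1.42 ± 0.37 SE, adjusted p = 0.0348). Most of these gate calls ended when a library was left out: Vsig4 without either b-gal+ library (0.0589 and 0.0643) or b-gal- replicate 2 (0.0596), Cd93 without the same libraries (0.0601 to 0.115), and Colec12 without any one of the 4 gate libraries (0.0505 to 0.0992). Colec10 kept its call only without b-gal+ replicate 1 or EpCAM-positive replicate 2, with adjusted p of 0.0513 to 0.206 without any one of the other 6 and 0.0522 without the filter on low counts. Itgax, a chain of complement receptor 4, was highest in EpCAM-positive cells (336 and 129 CPM) and differed by -2.30 ± 0.57 (SE; adjusted p = 0.0227) for b-gal+ minus EpCAM-positive cells. That call ended without either b-gal+ library or EpCAM-positive replicate 1 (0.0819 to 0.112). Crp (-4.05 ± 0.71 SE, adjusted p = 0.00665) and Cpn1 (-3.56 ± 0.70 SE, adjusted p = 0.00965) were also higher in EpCAM-positive than in b-gal+ cells with 26.0 and 132 CPM of Crp and 9.73 and 55.3 of Cpn1 in EpCAM-positive cells and replicate 2 above replicate 1 as for Clu, Cfi and Alb; the Cpn1 call ended without either b-gal+ library (0.0539 and 0.0532).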

How the data were processed

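Bulk RNA sequencing of 8 libraries was used. The submitters' processing notes name HTSeq and the genome build GRCm38.p4 (mm10); the aligner, annotation, versions and scaling step are not given in the sources used here. Hepatocyte replicate 1 was deposited as counts per gene symbol. The other 7 files, as deposited by the authors, hold a different unit, counts multiplied by 1 factor per library (1.08 to 1.54) with decimal commas. Dividing by the step gave whole reads for 100% of values within 0.01 reads. Of 21982 rows, 14 carry a spreadsheet date number in place of a symbol; they hold 0.0514% to 0.182% of the reads and were left out.

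Reads were scaled with TMM (edgeR 4.0.16, factors 0.527 to 1.48), and genes passing edgeR's default low-count filter, 14404 in all, were tested with limma 3.58.1 (trend) on log2(CPM + 0.5), two-sided, in R 4.3.3. All 8 libraries entered 1 fit with 4 residual degrees of freedom, p-values were adjusted over all 14404 genes (Benjamini-Hochberg), and adjusted p under 0.05 was a call. A gene has 1 SE for all comparisons in this fit, so unlike replicates in any group widen the intervals of every comparison. For genes with few reads, the pseudocount sets the fitted difference. The procedure was run on simulated data with changes in b-gal+ cells only, read between the gates. The simulation held no other difference between groups or replicates, so it does not test the comparisons with hepatocytes. Its outcome is not given here. Alternatives were DESeq2's size factors, the scaling of the deposited values, no filter, a pseudocount of 2, a replicate block, edgeR's quasi-likelihood test, DESeq2 1.42.0 and leaving out each library. The log-scale test was set as the main one because 7 of 8 files hold scaled values. All the tests, the count models included, used the recovered whole reads. Members with the largest called difference in each arm are given in full and the rest by range; other complement genes are named, up to 6 per comparison, if called, at a mean of at least 10 CPM and without overlap. The members and lists were chosen with earlier results of these data known. Positions are from GENCODE M21 on GRCm38 and promoters from RefSeq on GRCm38.p6. Exact intervals (Clopper-Pearson, 95%) and floors describe counting error alone, because without molecular identifiers several reads can come from 1 molecule. With n = 2 pools per group, small differences were not detectable.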

Additional observations from a re-analysis of the deposited data

How the results depend on the processing

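Of 186 member and comparison pairs, 116 were called, and 84 of these kept direction and call in all 15 alternatives; 32 lost the call in 1 or more. The other 70 pairs were less steady: 31 changed direction and 27 gained a call in some alternative. Leaving out 1 library, members called higher numbered 2 to 11 (b-gal+ against b-gal-), 2 to 8 (EpCAM-positive cells against hepatocytes) and 0 to 11 (b-gal- against EpCAM-positive cells), those lower 3 to 6 (b-gal+ against EpCAM-positive) and 0 to 3 (b-gal- against EpCAM-positive), and those highest in EpCAM-positive cells 0 to 1 (Clu, without EpCAM-positive replicate 1). Without the filter, and with a pseudocount of 2, members higher in EpCAM-positive cells than hepatocytes were 3 each rather than 5. With DESeq2, members higher in b-gal- than EpCAM-positive cells were 12 rather than 6. The authors' scaling in place of TMM turned the direction for C2 (0.28) and C4b (0.36) in b-gal+ cells against hepatocytes, C6 (0.97) and Cd59a (1.15) in b-gal-, Cd59a (0.31) and Masp1 (0.11) in EpCAM-positive cells, and C3 between the gates (-0.10); that scaling raises all genes against hepatocytes. C3 between the gates was also negative with edgeR (-0.23), DESeq2 (-0.23) and, over the libraries left out, ran from -0.96 to 1.07. Small uncalled differences from hepatocytes turned sign too: with 1 library left out, C6 (-2.02 to 1.45) and Cd59a (-0.15 to 0.043) in b-gal- cells, and Clu in EpCAM-positive cells (-1.15 to 1.18), Masp1 in b-gal- cells with DESeq2's size factors (-0.0052), and Clu in EpCAM-positive cells with those size factors (-0.024) and with no filter (-0.022). Serping1 between the gates ran from -1.84 to 0.39 with 1 library left out. Where no value above shows it, the cause was not tested. The labels do not say that replicate numbers pair the libraries; their deviations from the group means correlated at 0.177 to 0.494 over the 6 pairs of groups. With the replicate block, members higher in b-gal- than EpCAM-positive cells were 10 rather than 6, and C3ar1 passed between the gates (0.0296). Over the groups, 3 reads were 0.122 to 0.177 CPM, so Cfd, Fcnb and C7 could not be ordered.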
